A study of Mus musculus with 4 samples.

Results

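The genes described here code for heat shock proteins and folding chaperones, with their J-protein partners, the BAG exchange factors and the heat shock transcription factors. They were taken by gene name: the HSPA, HSPB, HSP60, HSP10, HSP110 and HSP90 genes, DNAJA, DNAJB and DNAJC, the subunits of the chaperonin TRiC, BAG and HSF, with rows named as pseudogenes left out. The rule found 96 of the 56350 genes in the counts table, and 76 of the 96 had enough counts to be tested, among 14455 tested genes. RNA came from EO771, a mammary carcinoma line of C57BL/6 mice. There were 2 libraries labelled BML-210, from cells given 1.0 µM for 48 h, and 2 labelled untreated, whose titles say wild type and whose protocol speaks of vehicle. The compound inhibits histone deacetylases, enzymes that take acetyl groups off histones and other proteins. The library codes carry a V for the samples labelled BML-210 and a D for those labelled untreated, and the sources used here do not say what these letters stand for. Each direction below rests on the treatment labels, and would be reversed if D stood for drug and V for vehicle. The labels do not say whether the 2 libraries of a group came from separate cultures, and p-values then measure only the spread between these libraries, which may be technical.

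Chaperones bind unfolded proteins and help them fold. HSP70 proteins bind short exposed stretches in a cycle of ATP use that J proteins start and exchange factors such as HSP110 and BAG proteins reset. HSP90 takes over late folding of kinases and receptors, and the ring-shaped TRiC and HSP60 chaperonins enclose their clients. The cytosol, the endoplasmic reticulum (ER) and the mitochondrion each have their own HSP70 and HSP90 forms. Transcription factor HSF1 raises many cytosolic and mitochondrial members under stress, and the unfolded protein response raises those of the ER.

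The chaperone genes moved in both directions and mostly by little, with more cytosolic genes called lower than higher. Of the 76 tested genes, 16 were higher and 21 lower in the BML-210 libraries and 39 did not pass, which is 48.7% called. Of all tested genes 46.4% were called (22.9% higher and 23.5% lower; edgeR quasi-likelihood test, adjusted p below 0.05), so the share of chaperone genes called was near the background. Among 38 cytosolic members 14 were lower and 6 higher, with a median log2 fold change of -0.07. Of 13 ER members 4 were lower and 2 higher (median -0.05), and of 8 mitochondrial members 3 were higher and the other 5 did not pass (median 0.15). The median over all tested genes was 0.00 on the same scale. By compartment, 52.6% of cytosolic, 46.2% of ER and 37.5% of mitochondrial members were called. Those of the mitochondrion were Hspd1, Hspe1 and Hspa9. The libraries of the groups did not overlap for 56 of the 76 members (73.7%), against 71.3% of all tested genes. Only Dnajb13 was called with a change of 2-fold or more, and 28 of the 37 called members changed by less than 0.32 on the log2 scale. Fits that left out a library held a single library in that group. In them fewer members, and fewer of all tested genes, were called lower. Under DESeq2 the calls of Bag3, Bag5, Cct2, Cct5, Dnaja2, Dnajb1, Dnajb4, Dnajb11, Dnajb13, Dnajc1, Dnajc25, Hsf2, Hsf4, Hspa1b, Hspa9 and Hsph1 ended, and those of Dnajb11, Dnajc25, Hspa9 and Hsph1 also ended under another scaling or filter.

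**Figure D1:**
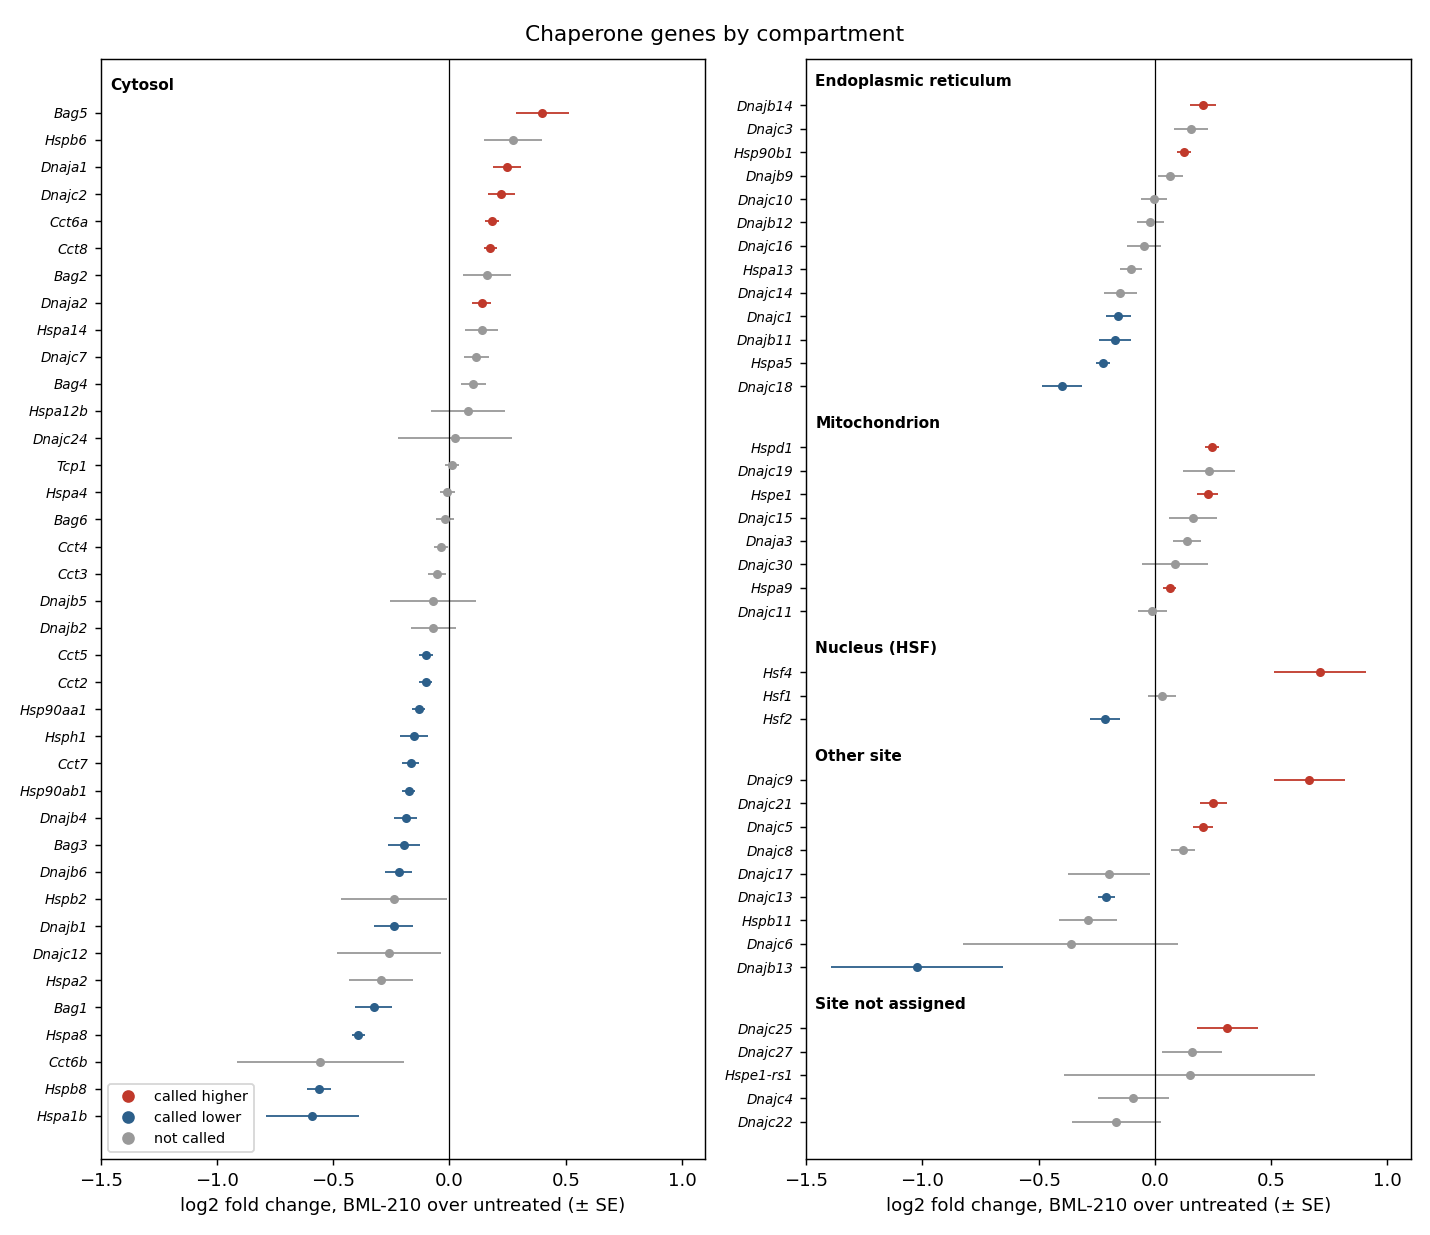
Log2 fold change (BML-210 over untreated, horizontal axis) of the 76 tested chaperone genes, grouped by compartment, with bars of 1 SE. Red marks the 16 genes called higher, blue the 21 called lower and grey the rest. Most called cytosolic genes lie left of 0, and the called mitochondrial genes lie right of it.

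Gene counts summed to 13167893 and 13961743 in the BML-210 libraries and to 16534667 and 13855061 in the untreated ones. Mitochondrially encoded genes took 5.57% and 5.41% of counts in BML-210 libraries and 5.40% and 5.05% in untreated ones. The most abundant row, Gm26917, took 4.04% and 4.45% in BML-210 libraries and 5.52% and 6.41% in untreated ones. Of 13 mammary epithelial markers only 3 had enough counts to test, Krt8, Esr1 and Cdh1. Of these Krt8 (log2 fold change -0.59, edgeR adjusted p = 3.50e-09) and Esr1 (-0.74, edgeR adjusted p = 0.015) were called lower, and the list summed to 33.1 and 36.4 CPM (counts scaled to library size) in BML-210 libraries and 50.6 and 55.1 CPM in untreated ones. Epcam had 3 and 1 counts in BML-210 and 2 and 1 in untreated libraries, and Elf5 had no count. The summed level of 14 macrophage markers was 43.8 and 43.5 CPM in BML-210 libraries and 176 and 179 CPM in untreated ones. Most of this was Cd68, with 424 and 421 counts in BML-210 and 2617 and 2266 in untreated libraries. Of the 6 macrophage markers tested, Cd68 (log2 fold change -2.38) and Adgre1 (-2.98, with 1 and 4 counts in BML-210 and 33 and 13 in untreated libraries) were called lower. C1qb, not tested, had 2 and 1 counts in BML-210 and 13 and 4 in untreated libraries, and Csf1r 7 and 3 in BML-210 and 16 and 6 in untreated libraries. Aif1 had 1 count in all and C1qc had none. The other 4 tested macrophage markers, Cd74 (0.09), Ptprc (0.02), Cd14 (-0.44) and Lyz2 (-0.40), did not pass. Fcer1g had 4 and 3 counts in BML-210 and 3 and 1 in untreated libraries. Itgam had 1 and 3 counts in BML-210 and 1 and 0 in untreated libraries. Of 8 fibroblast markers the sum was 202 and 207 CPM in BML-210 libraries and 231 and 239 CPM in untreated ones, with Thy1 and Lum at 0. Pdgfrb (0.57) and Col3a1 (1.55) were called higher and Pdgfra (-0.68) lower. The sum of 8 endothelial markers was 10.5 and 9.42 CPM in BML-210 libraries and 9.25 and 8.52 CPM in untreated ones. The part of these shifts in the chaperone results was not tested. In bulk RNA, fewer cells of a type and less RNA per cell cannot be told apart.

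HSF1 is the main factor of the heat shock response, and its RNA did not pass the test. Hsf1 (ENSMUSG00000022556.11, chromosome 15, 76477422 to 76501913, mm10) had 60.9 and 60.1 CPM in BML-210 libraries and 57.3 and 61.4 CPM in untreated ones. These ranges overlap, and its log2 fold change was 0.03 ± 0.06 (SE, with an edgeR adjusted p of 0.709). Hsf2, a related factor of development and stress, had 51.6 and 45.3 CPM in BML-210 libraries and 58.4 and 53.7 CPM in untreated ones. It fell by 0.22 in log2 units (edgeR adjusted p = 0.00528), but the call ended without BML-210 replicate 2 (adjusted p = 0.234) or untreated replicate 1 (0.128). Hsf4, known from the lens, was low, with 111 and 83 counts in BML-210 libraries and 62 and 69 in untreated ones. It rose by 0.71 in log2 units (edgeR adjusted p = 0.00235), and the call ended without BML-210 replicate 1 (adjusted p = 0.158) or untreated replicate 1 (0.0618). Among other regulators, 2 of 8 tested genes were higher and 4 lower, against 22.9% and 23.5% of all tested genes. Sirt1, a deacetylase that acts on HSF1, rose by 0.55 and the kinase gene Plk1 by 0.44 on the log2 scale. Hdac6, the deacetylase of HSP90, had a log2 fold change of -0.59, Hsbp1, a binding partner of HSF1, of -0.28, and the segregase gene Vcp of -0.16 (edgeR adjusted p of 5.16e-05, 1.09e-05 and 3.73e-05).

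HSF1 binds heat shock elements, inverted repeats of GAA. Windows of 300 bases around RefSeq start sites (GRCm38.p6, the assembly also called mm10) were found for 58 of the 76 tested members. Hspa8, Hsp90aa1 and Hsp90ab1 were not among the 58, so their start sites were not searched. An element of 3 units (GAA and TTC in alternation, 2 bases apart, starting with either, searched on both strands with overlapping matches allowed) was found for 4 of the 58, Hspd1, Hspe1, Hsph1 and Dnajb6, and for 0.662% of all 27025 genes of that table. The stretches are shown because these 4 genes hold such a match and did not move the same way. Hspd1 and Hspe1, which share the first stretch, rose, whereas Hsph1 and Dnajb6 fell. RefSeq gives Hspd1 2 start windows. From the start with the match, Hspd1 and Hspe1 face away from each other across the stretch, while the other Hspd1 start lies beyond it, on the Hspe1 side, and its window holds no match. Capitals mark the matches, which in the first stretch are 2 overlapping ones that make a run of 4 units and in the others a single one of 3 units, and each sequence is on the strand of its gene. They lie at chr1:55087933-55088147 (plus strand), chr5:149636280-149636308 (minus strand) and chr5:29735844-29735872 (plus strand).
Hspe1: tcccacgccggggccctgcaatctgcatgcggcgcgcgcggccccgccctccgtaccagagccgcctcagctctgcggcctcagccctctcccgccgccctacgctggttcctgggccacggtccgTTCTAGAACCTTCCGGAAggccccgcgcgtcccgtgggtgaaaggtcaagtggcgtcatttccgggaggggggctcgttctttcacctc
Hsph1: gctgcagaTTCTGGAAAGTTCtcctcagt
Dnajb6: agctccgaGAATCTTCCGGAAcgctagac
A match is a description of the letters and not a shown binding site. The windows of Hspa1b, Dnajb1, Bag3 and Dnaja1, which HSF1 is also known to induce, held no match of 3 units. The Hsph1 match lies after its RefSeq start sites, whereas the other matches lie before theirs.

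The main cytosolic HSP70 and HSP90 genes were lower in the BML-210 libraries. Hspa8 (ENSMUSG00000015656.17, chromosome 9, 40800984 to 40810087) codes for HSC70, the constitutive HSP70, and had 869 and 865 CPM in BML-210 libraries, against 1127 and 1147 CPM in untreated ones. All BML-210 values lie below the untreated values, and the log2 fold change was -0.39 ± 0.03 (SE, with an edgeR adjusted p of 5.83e-19), so that the gene fell by 23.8%. Hsp90ab1 (ENSMUSG00000023944.14, chromosome 17, 45567775 to 45573271), the constitutive HSP90 beta, had 1679 and 1707 CPM in BML-210 libraries and 1885 and 1939 CPM in untreated ones (log2 fold change -0.18 ± 0.03 SE, with an edgeR adjusted p of 1.36e-07). Hsp90aa1 (ENSMUSG00000021270.13, chromosome 12, 110690605 to 110702728), the inducible HSP90 alpha, had 564 and 557 CPM in BML-210 libraries and 629 and 599 CPM in untreated ones (log2 fold change -0.13 ± 0.03 SE, with an edgeR adjusted p of 0.000122). Again neither pair of libraries overlaps the other. Per exonic length (RPKM, computed from the scaled counts), Hsp90ab1 and Hspa8 had the highest mean levels of all 76 tested chaperone genes in untreated libraries, and Hsp90ab1 stood 3.91 and 4.02 times as high as Hsp90aa1 in BML-210 libraries and 3.93 and 4.25 times as high in untreated ones. These 3 genes together summed to 3112 and 3129 CPM in BML-210 libraries and 3642 and 3685 CPM in untreated ones. All 3 calls held under each of 13 alternatives. Of 100-base windows of the longest transcript, 32.1% for Hspa8 and 47.5% for Hsp90aa1 also occur in transcripts of other genes. Gm15459, the row that shares most with Hspa8, had 190 and 212 counts in BML-210 and 371 and 271 in untreated libraries, and the sources used here do not say how shared reads were counted.

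The stress-inducible HSP70 genes had few counts. Hspa1a had 0 and 1 counts in BML-210 and 1 and 0 in untreated libraries, and was not tested. Its near-identical neighbour Hspa1b had 59 and 54 counts in BML-210 libraries and 108 and 81 in untreated ones, or 4.47 and 3.85 CPM against 6.57 and 5.90 CPM. It fell by 0.59 in log2 units (edgeR adjusted p = 0.0122), and the call ended without BML-210 replicate 2 (adjusted p = 0.112) or untreated replicate 1 (0.0929). Of its 100-base windows, 49.9% also occur in Hspa1a, so the split of reads between these genes is uncertain. Among the HSP110 exchange factors, Hspa4 had 403 and 389 CPM in BML-210 libraries and 404 and 393 CPM in untreated ones, and did not pass (edgeR adjusted p = 0.848). Hsph1, which is HSF1-inducible, had 59.3 and 53.2 CPM in BML-210 libraries and 62.5 and 62.3 CPM in untreated ones, a log2 fold change of -0.15 ± 0.06 (SE, with an edgeR adjusted p of 0.0346). That call ended without BML-210 replicate 2 (adjusted p = 0.485), untreated replicate 1 (0.0978) or untreated replicate 2 (0.0786). Hspa14 (0.14), Hspa2 (-0.29) and Hspa12b (0.08) did not pass, and Hspa12a, Hspa1l and Hspa4l had too few counts to test.

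**Figure D2:**
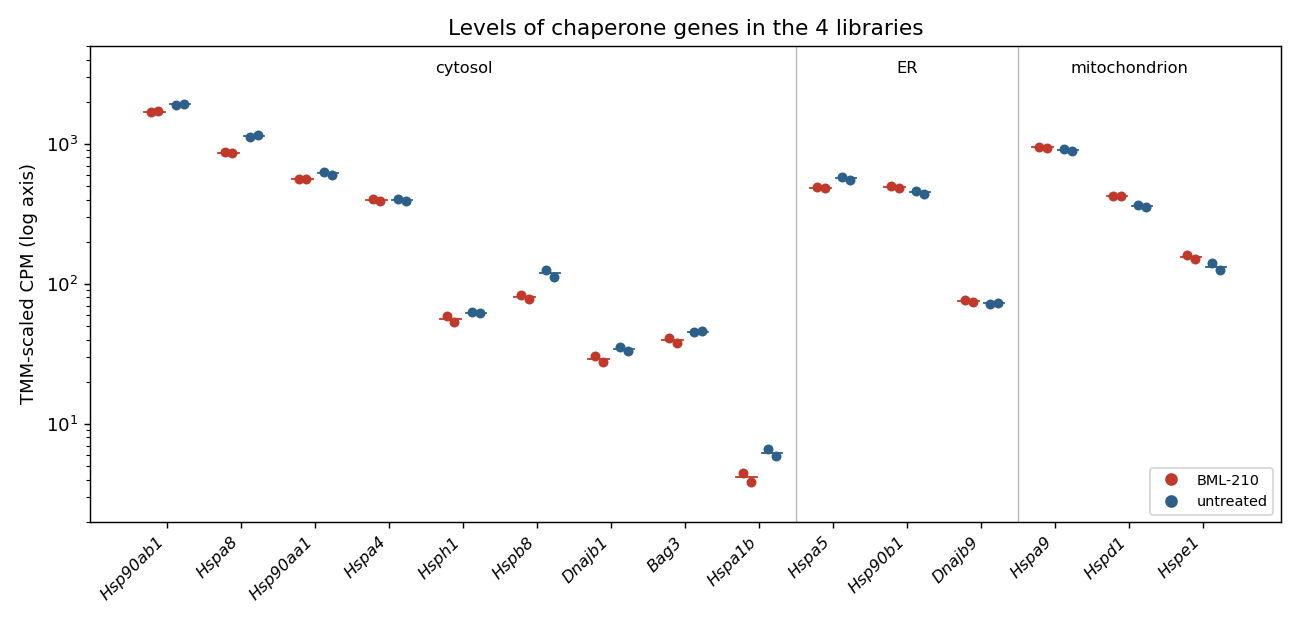
TMM-scaled CPM (log axis) of 15 chaperone genes in each library, with BML-210 libraries in red, untreated libraries in blue and a short line at each group's mean. Hspa8, Hsp90ab1, Hspb8 and Hspa5 lie lower in BML-210 libraries, and Hspd1, Hspe1 and Hsp90b1 lie higher.

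Of the 4 tested small heat shock genes, Hspb8 fell and the others did not pass. HSPB8 works with BAG3 to direct misfolded proteins to autophagy. Hspb8 (ENSMUSG00000041548.4, chromosome 5, 116408491 to 116422864) had 83.1 and 78.3 CPM in BML-210 libraries and 125 and 112 CPM in untreated ones, and so fell by 32.2% (log2 fold change -0.56 ± 0.05 SE, with an edgeR adjusted p of 3.42e-14). Bag3 had 41.3 and 38.1 CPM in BML-210 libraries and 45.1 and 45.7 CPM in untreated ones (log2 fold change -0.19 ± 0.07 SE, with an edgeR adjusted p of 0.0182). The Bag3 call ended without BML-210 replicate 2 (adjusted p = 0.232) or untreated replicate 2 (0.0689), whereas that of Hspb8 held under all 13 alternatives. Cryab, the alpha-B crystallin gene, is a small heat shock gene that the name rule does not take. It had 220 and 220 counts in BML-210 libraries and 461 and 325 in untreated ones (log2 fold change -0.68, edgeR adjusted p = 1.28e-07). Its exons overlap those of Hspb2 on the other strand, and Hspb2 did not pass (-0.24, edgeR adjusted p = 0.411). Hspb6 (0.27) and Hspb11, which codes for an intraflagellar transport subunit (-0.29), did not pass either. Hspb1, the gene of HSP25, an abundant stress protein of many cells, had 1 and 0 counts in BML-210 libraries and 1 and 1 in untreated ones. Of its 100-base windows, 42.7% also occur in the pseudogene Hsp25-ps1.

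The other BAG genes went in both directions. Bag1, an exchange factor for HSP70, had 28.2 and 32.8 CPM in BML-210 libraries and 39.0 and 37.5 CPM in untreated ones (log2 fold change -0.32 ± 0.08 SE, with an edgeR adjusted p of 0.000526). Its call ended without BML-210 replicate 1 (adjusted p = 0.0531). Bag5, with several BAG domains, had 19.2 and 18.2 CPM in BML-210 libraries and 13.6 and 14.8 CPM in untreated ones (log2 fold change 0.40 ± 0.11 SE, with an edgeR adjusted p of 0.00272). The Bag5 call ended under DESeq2 (adjusted p = 0.0576). Bag6, which handles tail-anchored proteins, overlapped between the groups (210 and 213 CPM in BML-210, 206 and 222 CPM in untreated libraries). Bag2 (0.16) and Bag4 (0.10) did not pass.

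TRiC folds actin and tubulin in a ring of 8 different subunits. Of its 8 genes 2 rose and 3 fell, against 22.9% and 23.5% of all tested genes. Cct8 had 508 and 510 CPM in BML-210 libraries and 448 and 453 CPM in untreated ones, a log2 fold change of 0.18 ± 0.03 (SE, with an edgeR adjusted p of 9.58e-07). Cct6a had 401 and 403 CPM in BML-210 libraries and 354 and 355 CPM in untreated ones, with the same fold change (0.18 ± 0.03 SE, with an edgeR adjusted p of 1.24e-06). Cct7 had 194 and 190 CPM in BML-210 libraries and 217 and 214 CPM in untreated ones (log2 fold change -0.17 ± 0.04 SE, with an edgeR adjusted p of 0.000143). These 3 calls held under all 13 alternatives. Cct2 (-0.10, edgeR adjusted p = 0.00324) and Cct5 (-0.10, edgeR adjusted p = 0.00553) fell slightly, Cct3 (-0.05), Cct4 (-0.04) and Tcp1 (0.01) did not pass. The call of Cct2 ended without BML-210 replicate 2 (adjusted p = 0.103), and that of Cct5 without BML-210 replicate 1 (0.0938) or untreated replicate 2 (0.0581). Both also ended under DESeq2 (adjusted p = 0.0532 for Cct2 and 0.0759 for Cct5). Summed per exonic length over the 8 genes, the level was 842 and 847 RPKM in BML-210 libraries and 843 and 843 RPKM in untreated ones. On that scale the ratio of Cct8 to Cct7 was 5.74 and 5.90 in BML-210 libraries and 4.54 and 4.64 in untreated ones. The exonic length exceeds the longest transcript, at 6778 against 3884 bases for Cct7 and 3088 against 2394 for Cct8. The ratio thus depends on annotated length, and serves to compare the groups and not the amounts of the subunits. Exons of Cct6a overlap those of Psph, a serine synthesis gene on the other strand that rose by 0.57, and 15.0% of Cct6a windows occur in it. Exons of Cct8 overlap those of Usp16, and 4.05% of its windows occur there. The part of such shared reads in the Cct6a and Cct8 results was not tested. The testis form Cct6b had 24 and 12 counts in BML-210 and 36 and 23 in untreated libraries and did not pass.

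**Figure D3:**
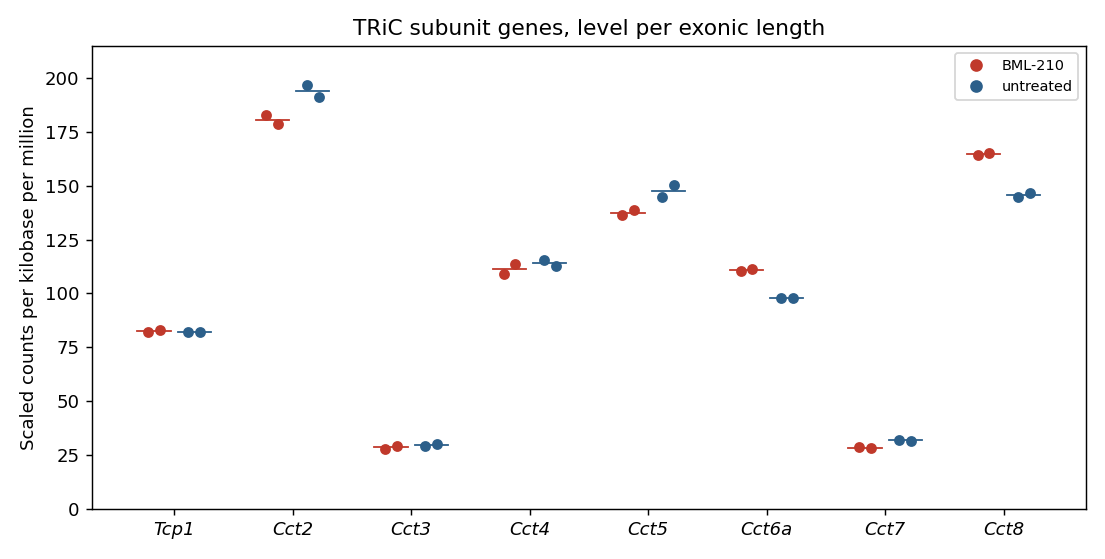
Level per exonic length (RPKM, vertical axis from 0) of the 8 TRiC subunit genes in each library, with BML-210 in red, untreated in blue and a line at each group's mean. Cct6a and Cct8 are higher, and Cct2, Cct5 and Cct7 lower, in BML-210 libraries. Differences in height between genes also depend on their annotated lengths.

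J proteins hold the HPD motif that triggers the ATPase of HSP70 and choose its clients. Of 38 tested J-protein genes 8 were higher and 8 lower, which is near the 22.9% and 23.5% of all tested genes. Among cytosolic type I members, Dnaja1 had 64.0 and 71.8 CPM in BML-210 libraries and 56.2 and 58.4 CPM in untreated ones (log2 fold change 0.25 ± 0.06 SE, with an edgeR adjusted p of 0.000459). Dnaja2 had 157 and 163 CPM in BML-210 libraries and 144 and 147 CPM in untreated ones (0.14 ± 0.04 SE, with an edgeR adjusted p of 0.00398). Both calls ended without BML-210 replicate 2 (adjusted p = 0.0856 for Dnaja1 and 0.118 for Dnaja2). Of the 5 tested cytosolic type II members, 3 were lower and the other 2 did not pass. Dnajb1, the classical HSP40 of the heat shock response, had 30.4 and 27.6 CPM in BML-210 libraries and 35.2 and 33.2 CPM in untreated ones (log2 fold change -0.24 ± 0.08 SE, with an edgeR adjusted p of 0.0128). Dnajb4 (-0.19, edgeR adjusted p = 0.00108) and Dnajb6, a suppressor of aggregation (-0.22, edgeR adjusted p = 0.0011), fell as well. The call of Dnajb1 ended without BML-210 replicate 2 (adjusted p = 0.188) or untreated replicate 1 (0.115), that of Dnajb4 without the same libraries (0.065 and 0.0678) and that of Dnajb6 without BML-210 replicate 1 (0.0644). Dnajb2 (-0.07) and Dnajb5 (-0.07) did not pass. Of 100-base windows, 36.3% for Dnajb6 and 24.0% for Dnaja1 also occur in transcripts of other genes. Exons of Dnaja1 overlap those of Smu1 on the other strand, which did not pass (0.10).

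J proteins with work beyond folding included Dnajc9, which had the largest called rise among the J-protein genes. Dnajc9, a nuclear J protein that binds histones H3 and H4, had 152 and 164 counts in BML-210 libraries and 105 and 115 in untreated ones. That is 11.5 and 11.7 CPM against 6.39 and 8.38 CPM, a log2 fold change of 0.67 ± 0.15 (SE, with an edgeR adjusted p of 0.000227). Dnajc21, of ribosome biogenesis, rose by 0.25 (edgeR adjusted p = 0.000305), and the ribosome-bound Dnajc2 by 0.22 in log2 units (edgeR adjusted p = 0.000842). Dnajc5, the cysteine string protein of secretory vesicles, had 141 and 140 CPM in BML-210 libraries and 119 and 125 CPM in untreated ones (log2 fold change 0.21 ± 0.04 SE, with an edgeR adjusted p of 6.21e-05). Dnajc13, an endosomal protein, had 187 and 191 CPM in BML-210 libraries and 218 and 220 CPM in untreated ones (-0.21 ± 0.04 SE, with an edgeR adjusted p of 3.52e-06). These 5 calls held under all 13 alternatives. Dnajb13, of the ciliary axoneme, was near the limit of counting, with 10 and 18 counts in BML-210 and 30 and 33 in untreated libraries. Its log2 fold change of -1.02 ± 0.37 (SE, with an edgeR adjusted p of 0.0192) lost its call without BML-210 replicate 1 (adjusted p = 0.209) or untreated replicate 2 (0.184). Dnajc25 (0.31, edgeR adjusted p = 0.0458) lost its call without BML-210 replicate 1 (0.0545), BML-210 replicate 2 (0.243) or untreated replicate 1 (0.354).

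In the ER the HSP70 gene Hspa5 and the HSP90 gene Hsp90b1 moved apart. Hspa13, an HSP70 relative of the ER, did not pass (log2 fold change -0.10, edgeR adjusted p = 0.0711). It had 101 and 101 CPM in BML-210 libraries and 112 and 104 CPM in untreated ones. Hspa5 (ENSMUSG00000026864.13, chromosome 2, 34771970 to 34777547) codes for BiP, the HSP70 of the ER lumen. It had 489 and 481 CPM in BML-210 libraries and 578 and 553 CPM in untreated ones, a log2 fold change of -0.22 ± 0.03 (SE, with an edgeR adjusted p of 4.54e-09). Hsp90b1 (ENSMUSG00000020048.13, chromosome 10, 86690209 to 86705509) codes for GRP94, the HSP90 of the ER. It had 498 and 486 CPM in BML-210 libraries and 461 and 441 CPM in untreated ones, a log2 fold change of 0.12 ± 0.03 (SE, with an edgeR adjusted p of 0.000464). The groups did not overlap for either gene, and both calls held under all 13 alternatives. Per exonic length, the ratio of Hsp90b1 to Hspa5 was 1.07 and 1.06 in BML-210 libraries and 0.837 and 0.838 in untreated ones. Exons of Hsp90b1 overlap a non-coding row on the other strand, 1810014B01Rik, and 5.57% of its windows occur there.

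The unfolded protein response acts on such genes through the ER stress response element, CCAAT and CCACG with 9 bases between them. Searched on both strands, it was found in the windows of 3 of 58 tested members, Hspa5, Hsp90b1 and Dnajc3, and of 0.137% of all genes in the table. The stretches before the RefSeq start sites of Hspa5 (chr2:34771875-34772089, plus strand) and Hsp90b1 (chr10:86705445-86705659, minus strand) are shown because both hold the element while their RNA levels moved in opposite directions. Capitals mark the element, which Hsp90b1 holds on both strands.
Hspa5: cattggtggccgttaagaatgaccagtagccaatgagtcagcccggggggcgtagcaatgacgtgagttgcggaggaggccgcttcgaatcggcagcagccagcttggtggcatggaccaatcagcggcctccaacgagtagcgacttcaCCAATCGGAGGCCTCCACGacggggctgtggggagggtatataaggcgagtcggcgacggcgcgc
Hsp90b1: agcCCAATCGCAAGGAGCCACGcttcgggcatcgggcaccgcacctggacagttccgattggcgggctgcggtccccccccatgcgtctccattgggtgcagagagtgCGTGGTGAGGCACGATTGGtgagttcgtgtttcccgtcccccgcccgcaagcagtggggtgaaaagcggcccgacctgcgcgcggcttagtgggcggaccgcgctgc
Dnajc3, whose product P58IPK assists BiP, had 44.0 and 40.0 CPM in BML-210 libraries and 38.0 and 37.3 CPM in untreated ones, and did not pass (log2 fold change 0.16, edgeR adjusted p = 0.0705).

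Of the ER J proteins, 3 of 10 tested genes fell and 1 rose, against 23.5% and 22.9% of all tested genes. Dnajc18, of the ER membrane, had 25.7 and 24.6 CPM in BML-210 libraries and 31.9 and 34.6 CPM in untreated ones (log2 fold change -0.40 ± 0.09 SE, with an edgeR adjusted p of 8.51e-05). Dnajb14, also of the ER membrane, had 72.8 and 74.4 CPM in BML-210 libraries and 64.9 and 62.4 CPM in untreated ones (0.21 ± 0.06 SE, with an edgeR adjusted p of 0.00148). Both calls held under all 13 alternatives. Dnajb11, which codes for the BiP partner ERdj3 (-0.17, edgeR adjusted p = 0.0316), lost its call without BML-210 replicate 1 (0.233) or untreated replicate 1 (0.565). Dnajc1 (-0.16, edgeR adjusted p = 0.0152) lost it without BML-210 replicate 2 or untreated replicate 1. Exons of Dnajc1 overlap those of Mllt10 on the other strand, which rose by 0.40 in log2 units. Dnajb9, the gene of ERdj4 and a common readout of the IRE1 branch, did not pass (0.07, edgeR adjusted p = 0.324). It had 77.0 and 74.7 CPM in BML-210 libraries and 72.2 and 72.5 CPM in untreated ones. Dnajc10, of the disulfide reductase ERdj5, had 64.6 and 65.8 CPM in BML-210 libraries and 67.7 and 62.9 CPM in untreated ones, and these overlap. Outside the chaperone names, 11 of 25 tested ER folding and stress genes were lower and 5 higher (median -0.10). The shares over all tested genes were 23.5% lower and 22.9% higher. The stress genes Herpud1 (0.86), Atf4 (0.35) and Atf6 (0.24) were among those higher. The disulfide isomerase gene P4hb (-0.45), the small BiP partner Sdf2l1 (-0.87) and the kinase gene Eif2ak3 (-0.51) were among those lower. Hyou1, the exchange factor for BiP, fell by 0.17 in log2 units (edgeR adjusted p = 9.34e-05).

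The mitochondrial chaperonin genes rose together. Hspd1 (ENSMUSG00000025980.14, chromosome 1, 55077835 to 55088243) codes for HSP60 and had 426 and 425 CPM in BML-210 libraries, against 364 and 354 CPM in untreated ones. Its log2 fold change was 0.25 ± 0.03 (SE, with an edgeR adjusted p of 9.00e-10). Hspe1 (ENSMUSG00000073676.4, chromosome 1, 55088132 to 55091307) codes for HSP10, the lid of the HSP60 ring, and had 161 and 150 CPM in BML-210 libraries and 140 and 125 CPM in untreated ones (0.23 ± 0.05 SE, with an edgeR adjusted p of 2.48e-05). Neither gene overlaps between the groups, and both calls held under all 13 alternatives. Per exonic length Hspd1 stood 1.47 and 1.58 times as high as Hspe1 in BML-210 libraries and 1.45 and 1.57 times as high in untreated ones. Their exons overlap on opposite strands, and 26.9% of Hspd1 windows also occur in other transcripts, most of them in Hspd1-ps3. That pseudogene had 76 and 73 counts in BML-210 libraries and 64 and 77 in untreated ones.

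Mortalin, the HSP70 of the mitochondrial matrix, changed by a small amount. Hspa9 (chromosome 18, 34937414 to 34954357) had 950 and 938 CPM in BML-210 libraries and 916 and 890 CPM in untreated ones, a log2 fold change of 0.06 ± 0.03 (SE, with an edgeR adjusted p of 0.0477). That call ended without BML-210 replicate 1 (adjusted p = 0.338), BML-210 replicate 2 (0.154) or untreated replicate 2 (0.191). Per exonic length, Hspa8 stood at 0.917 and 0.924 times the level of Hspa9 in BML-210 libraries. In untreated libraries it stood at 1.23 and 1.29 times that level, so on this scale the order of these HSP70 genes differed. Of 100-base windows, 32.1% for Hspa8 and 0% for Hspa9 also occur in other genes. How shared reads were counted is not stated, so the order itself is uncertain. The 5 tested mitochondrial J-protein genes did not pass edgeR's test, 2 of them with an unadjusted p below 0.05, and the mitochondrial genes that DESeq2 called were Hspd1 and Hspe1. They were Dnaja3, of TID1 (log2 fold change 0.14, edgeR adjusted p = 0.0517), the import motor gene Dnajc19 (0.23, adjusted p = 0.0848), Dnajc15 (0.16), Dnajc30 (0.09) and Dnajc11 (-0.01). Among 15 other genes of mitochondrial protein quality control, 2 were higher and 4 lower (median 0.01). The shares over all tested genes were 22.9% higher and 23.5% lower. The protease gene Lonp1 (0.22) and the mitochondrial HSP90 gene Trap1 (0.21) rose, and the protease genes Afg3l2 (-0.24) and Clpx (-0.27) and the mortalin exchange factor Grpel1 (-0.27) fell. Summed per exonic length, the 8 mitochondrial chaperone genes stood at 526.5 and 517 RPKM in BML-210 libraries and 477 and 459 RPKM in untreated ones. Hspd1 had a mean of 161 RPKM in BML-210 and 136 in untreated libraries, and Hspe1 106 and 90.1. The cytosolic genes summed to 2130 and 2140 in BML-210 and 2300 and 2309 in untreated libraries. Of this, Hspa8, Hsp90aa1 and Hsp90ab1 took 905 and 912 in BML-210 and 1051 and 1066 in untreated libraries. Both differences thus lay largely in a few abundant genes. The ER genes summed to 366 and 361 in BML-210 and 383 and 368 in untreated libraries.

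**Figure D4:**
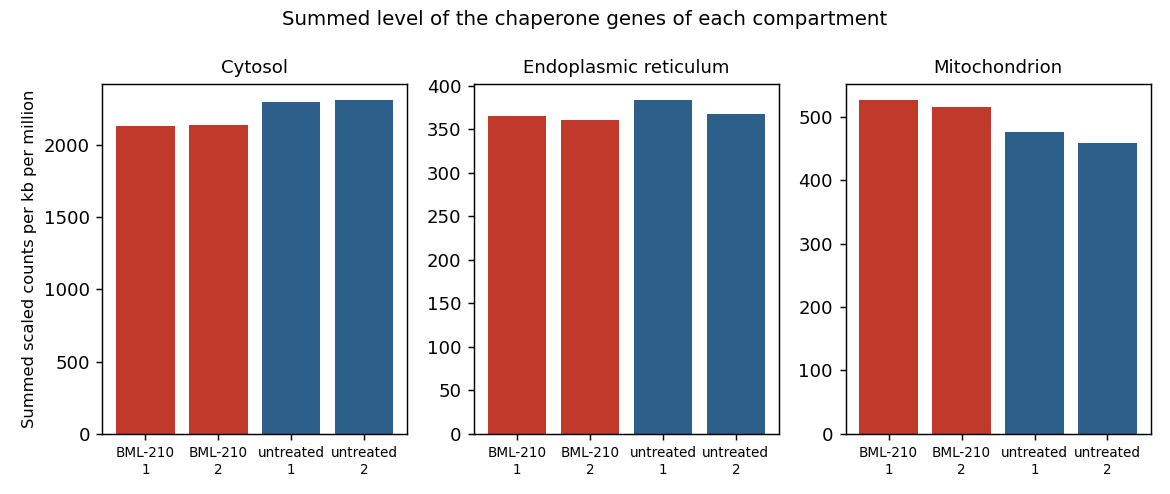
Summed level per exonic length of the chaperone genes of each compartment (RPKM, vertical axes from 0 with a different scale in each panel), 1 bar per library, BML-210 in red and untreated in blue. The cytosolic sum is lower and the mitochondrial sum higher in both BML-210 libraries than in both untreated ones. Hspa8, Hsp90aa1 and Hsp90ab1 hold much of the cytosolic difference, and Hspd1 and Hspe1 much of the mitochondrial one.

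Genes that HSF1 is known to induce moved in both directions. Of 17 tested genes of that list, 10 of them chaperone genes described above, 9 were lower and 6 higher (median -0.13), against 23.5% of all tested genes lower and 22.9% higher. Hspd1, Hspe1, Dnaja1, the HSP90 activator gene Ahsa1 (0.25), the HSP90 immunophilin gene Fkbp4 (0.31) and the collagen chaperone gene Serpinh1 (0.28) rose. Hspa8, Hspa1b, Hsph1, Dnajb1, Bag3, Hsp90aa1, Hsp90ab1, Cryab and Dedd2 (-0.69, edgeR adjusted p = 1.64e-06) fell. Without BML-210 replicate 2 fewer genes of the list were called lower, and fewer of all tested genes as well.

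The partners of HSP90 were called in both directions, and those of TRiC that passed were lower. Of 18 tested HSP90 cochaperone genes 4 were higher and 4 lower (median 0.03), which is near the 22.9% and 23.5% of all tested genes. Cacybp (0.51, edgeR adjusted p = 6.74e-17), Fkbp4 and Ahsa1 rose, and the kinase-loading factor Cdc37 (-0.37, edgeR adjusted p = 4.53e-08) and Stub1, the ubiquitin ligase CHIP (-0.26, edgeR adjusted p = 0.00315), fell. Stip1, which links HSP70 to HSP90, did not pass (0.03, edgeR adjusted p = 0.425). Of 11 exchange factors and cofactors of HSP70 4 were lower, against 23.5% of all tested genes, and the other 7 did not pass. Those lower were Sgta (-0.31), Sgtb (-0.35), Hyou1 and Grpel1. Hyou1 is also counted in the ER list above and Grpel1 in the mitochondrial list. Of 14 prefoldin and tubulin cofactor genes, which hand clients to TRiC or work after it, 6 were lower (median -0.16). The other 8 did not pass, and of all tested genes 23.5% were lower. The prefoldin gene Pfdn1 (-0.45, edgeR adjusted p = 0.000958), the tubulin cofactor gene Tbcb (-0.44, edgeR adjusted p = 0.000432) and Txndc9 (-0.24, edgeR adjusted p = 0.000654) were among those lower. Without untreated replicate 1 fewer of these cofactor genes were called lower, and fewer of all tested genes as well.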

How the data were processed

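The deposited table holds raw read counts per gene for 4 libraries of total RNA, with exonic lengths, in mm10. Per the submitters' processing notes, the tools included STAR 2.5, Subread 1.5.1 with featureCounts, bcl2fastq, and edgeR 3.20.8. The sources used here do not state the settings for strand, multi-mapping or overlap. Deposited gene names and coordinates were used, and 95 of the 96 members have the same start and end in GENCODE M21.

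The test was run with edgeR 4.0.16 (R 4.3.3): filterByExpr, TMM scaling, and the robust quasi-likelihood test on the group alone over all 14455 tested genes, adjusted by Benjamini-Hochberg and called below 0.05. The SE is the log2 fold change over the square root of F. A count of 3 equals 0.183 to 0.227 CPM. Levels per exonic length (RPKM) were computed from the deposited counts and lengths, as TMM-scaled CPM per kilobase. For some genes this length exceeds that of the longest transcript, so comparisons between genes on this scale depend on annotation. The steps were tested on simulated data.

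Chi-square over degrees of freedom between replicates was 1.76 for BML-210 and 2.70 for untreated libraries, so no library was counted as a repeat of another. Members, compartments and lists were chosen with earlier results of these data known. Some genes stand in several lists, so the counts of the lists are not separate. Any tested member could be named, and per list up to 4 called genes by smallest adjusted p and up to 2 against the majority. Outside that rule, Hdac6, Atf6, Sdf2l1, Eif2ak3, Clpx, Stub1, Stip1, Cryab and Dedd2, cell type markers, and the overlapping rows beside a member, were named after their values were seen. Alternatives used RLE, upper-quartile or no factors, other filters, DESeq2 1.42.0, limma-voom (limma 3.58.1), the replicate number as a block, abundant genes left out and each library left out.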

Additional observations from a re-analysis of the deposited data

How the results depend on the processing

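All 37 called chaperone genes kept their sign under the 13 alternatives, and 18 stayed past the threshold under every one. For each called gene the libraries of the groups did not overlap, so leaving out a library could hardly turn a sign. DESeq2 called 2205 of all genes higher and 2130 lower, against 3312 and 3402 with edgeR. With DESeq2, 10 members were called lower, 7 of them in the cytosol and 2 in the ER, and 11 higher. With each library left out in turn, members called lower ran from 13 to 18, in the cytosol from 8 to 12 and in the ER from 2 to 5. Under DESeq2 the number of HSF1-inducible genes called lower was 5 and of HSP90 cochaperones 2. DESeq2 called 30% of all tested genes in either direction, against 46.4% with edgeR, so calls were lost over the whole table. With library size only, 7 HSP90 cochaperones were called higher, beside 3537 of all 14455 tested genes. The replicate number as a block gave 17 members higher and 21 lower and changed no called member. Same-numbered libraries did not deviate together (correlation 0.00988), so the numbers are not taken as pairs. With 2 libraries a group, changes of about 0.1 on the log2 scale rest on a spread that may be technical.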

Other observations

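Among the 20 chaperone genes with too few counts to test, 8 had no count in any library. Hspb7, a small heat shock gene of heart, had 8 and 13 counts in BML-210 libraries and 4 and 4 in untreated ones. Hsf5, a heat shock factor gene of testis, had 2 and 4 counts in BML-210 libraries and 8 and 7 in untreated ones. Hspa12a had 4 and 4 counts in BML-210 libraries and 6 and 8 in untreated ones. Of the 16 rows named as pseudogenes, Hspd1-ps3 had the highest counts, and Dnajc19-ps followed with 1 and 4 counts in BML-210 libraries and 5 and 5 in untreated ones.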
